A study of Mus musculus with 4 samples.

Results

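The 10 genes described here belong to the machinery of neuronal migration and the neuronal cytoskeleton: Reln, Dab1, Pafah1b1, Ndel1, Dcx, Tubb3, Tubb2b, Tuba1a, Map2 and Mapt. They were chosen by name, and every array probe whose RefSeq accession belongs to one of them was taken, without regard to its signal. This gave 21 probes for the 10 genes, out of 28685 probes with a RefSeq accession that cover 20660 named genes. Reln, Tubb3 and Tuba1a had 1 probe each, and the other 7 genes had 2 to 4. All 21 probes were well above background on all 4 arrays, each was spotted 1 time, and none was saturated or marked as an outlier.

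The study asked how exposure of pregnant mice to titanium dioxide nanoparticles (TiO2-NP) changes mRNA in the brains of their offspring. The Sham group was offspring of C57BL/6J dams given 25 uL of vehicle into the trachea, a liquid from which the particles had been removed. The TiO2-H group was offspring of C57BL/6J dams given 100 ug TiO2-NP per mouse by the same route. The treatment description gives gestational day 10.5 for the exposure and the sample descriptions give day 14, and all brains were taken whole at postnatal day 1. For each group and sex, RNA of 2 offspring from each of 5 dams (Sham) or 6 dams (TiO2-H) was pooled and hybridized to 1 one-color array, where the light given off by a spot grows with the amount of the mRNA it binds. The 4 arrays are therefore 4 pools, and the spread between 2 arrays of an exposure is a spread between pools, not between animals. Both Sham arrays lay in one row of the slide and both TiO2-H arrays in the other, so exposure and slide row cannot be told apart.

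Between 56.2% and 61.2% of spots were well above background, and the 75th percentile of the signal, to which each array was scaled, lay between 795 and 871. Of the sex-linked genes, Xist, which is transcribed from the inactive X chromosome, had a signal of 17.9 on the array labelled Sham male, 276 on Sham female, 347 on the array labelled TiO2-H male and 5.36 on the array labelled TiO2-H female. In that order of arrays, the Y-linked Eif2s3y gave 3519, 419.5, 6.40 and 4345, and the Y-linked Ddx3y gave 1418, 142.5, 7.18 and 1783. Both TiO2-H arrays thus went against their sex labels, and the Sham female array carried both kinds of transcript. The comparison of exposures below uses no sex label, and the values by labelled sex are given also with the TiO2-H labels crossed. All 5 neuron markers (Rbfox3, Syp, Snap25, Eno2, Syt1) were well above background on all 4 arrays.

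Newborn neurons leave the zones where they were born and move along radial glia to their layer. Reelin, a protein secreted by Cajal-Retzius neurons, acts through lipoprotein receptors and the adaptor Dab1 to place them, while Lis1, Ndel1 and dynein pull the nucleus forward along microtubules that doublecortin and other proteins stabilize. In humans, mutations of several of these genes, among them those for Lis1, doublecortin and tubulins, cause lissencephaly or related malformations of the cortex.

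None of the 10 genes differed between TiO2-H and Sham after adjustment over all probes, and none reached 1.5-fold or 0.67-fold, the thresholds of the study, in either labelled sex. Every probe of Map2, Pafah1b1 and Dcx was brighter on both TiO2-H arrays than on both Sham arrays, by 1.04-fold to 1.18-fold. The single probe of Tuba1a was so as well, by 1.03-fold, but with a difference of 0 under quantile normalization. Tubb3 and 1 of 2 probes of Ndel1 were dimmer on both TiO2-H arrays, by 0.963-fold and 0.912-fold, although without scaling of the arrays, which moved the median of all probes to 0.13 on the log2 scale, Tubb3 turned to 0.06 and the Ndel1 probe went from -0.13 to -0.02. For Reln, Tubb2b and Mapt no probe separated the exposures on scaled levels. Without scaling, both TiO2-H arrays were above both Sham arrays on every probe of these genes. The values below are log2 scaled levels, the log2 signal minus the log2 of the array's 75th percentile, in the order of the 2 Sham arrays, labelled male and female, and then the 2 TiO2-H arrays, labelled male and female. A difference is the mean of the 2 TiO2-H arrays minus the mean of the 2 Sham arrays on that scale, tested with limma and Benjamini-Hochberg adjustment over 35626 probes.

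At an adjusted p under 0.05, limma called 0% of the 35626 probes and 0 of the 21 probes of these genes. The lowest adjusted p was 0.386 over all probes and also over the 21. At an unadjusted p under 0.05, it called 3 of the 21 probes, all brighter in TiO2-H, against 8.33% of all probes brighter and 4.32% dimmer. These 3 are both Map2 probes and 1 Pafah1b1 probe, so they stand for 2 genes. Among probes well above background on every array, as all 21 are, limma called 5338 of 29409 in both directions together, beside 3 of the 21. With 1 array left out, which leaves 1 array in a group, the differences of the Map2 probes were 0.15 to 0.18 (A_52_P22763) and 0.19 to 0.29 (A_55_P2059307). Those of the Pafah1b1 probe A_55_P2111005 were 0.20 to 0.24. Both TiO2-H arrays lay above both Sham arrays for 9 of the 21 probes, against 26.7% of all probes, and below them for 3, against 23.6%. These counts are of scaled levels. Without scaling, which moved the median of all probes to 0.13, the Ndel1 probe A_52_P488305 overlapped (signals of 831, 805, 773 and 844). Every other probe then had both TiO2-H arrays above both Sham arrays, and the share of all probes was not counted. On scaled levels the share above is higher than the background. But the 9 probes come from only 5 genes, and probes of a gene read the same RNA. The median difference over the 21 probes was 0.03, against 0.01 over all probes, and the quartiles over all probes were -0.08 and 0.14. The 95% confidence intervals of the 21 differences lay between 0.797-fold and 1.34-fold, inside the thresholds of the study. They rest on 2 pools per exposure, and whole brain RNA cannot tell fewer cells of a type from less RNA per cell.

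**Figure D1:**
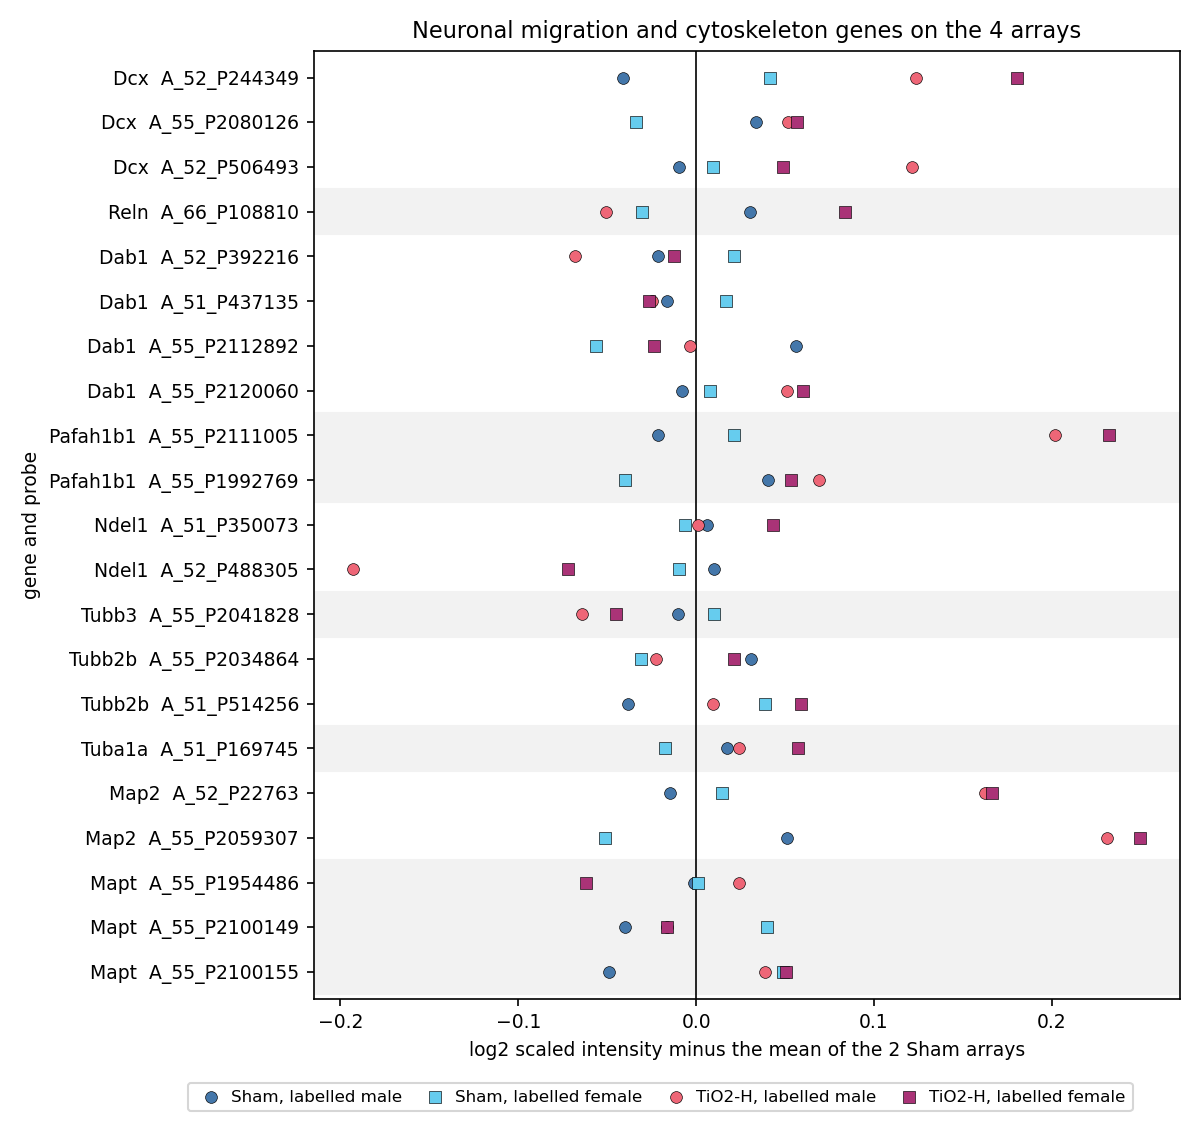
Each row is a probe of 1 gene, and each point is its log2 scaled intensity on 1 array minus the mean of the 2 Sham arrays (x axis, log2), with circles for arrays labelled male and squares for arrays labelled female. The TiO2-H points lie to the right of both Sham points for every Dcx, Pafah1b1 and Map2 probe, and all 84 points lie between -0.19 and 0.25.

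The promoters of Dcx, Pafah1b1 and Map2 are shown because of their scaled levels. Among the 7 genes with several probes, these are the ones whose probes all lay on one side on that scale. The GRCm38.p6 table held 8 of the 10 genes and not Tubb2b or Mapt. From it, 250 bases before the RefSeq start of each of the 3 genes are given. They are printed 5′ to 3′ on the strand of the gene, with each CG dinucleotide in capitals. Dcx is at chrX:143933220-143933469 on the minus strand, where the table holds 2 starts and the more upstream one was used. Pafah1b1 is at chr11:74723859-74724108 on the minus strand, and Map2 is at chr1:66175079-66175328 on the plus strand.
Dcx: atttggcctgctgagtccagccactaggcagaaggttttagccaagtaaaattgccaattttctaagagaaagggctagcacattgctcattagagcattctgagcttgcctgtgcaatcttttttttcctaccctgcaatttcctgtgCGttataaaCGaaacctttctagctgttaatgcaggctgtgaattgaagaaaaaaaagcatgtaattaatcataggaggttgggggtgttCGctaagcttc
Pafah1b1: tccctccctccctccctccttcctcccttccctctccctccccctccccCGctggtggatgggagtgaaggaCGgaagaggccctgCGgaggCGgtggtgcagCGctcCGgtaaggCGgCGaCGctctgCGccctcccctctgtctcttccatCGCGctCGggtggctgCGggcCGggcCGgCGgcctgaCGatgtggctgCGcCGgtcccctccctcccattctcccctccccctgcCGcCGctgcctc
Map2: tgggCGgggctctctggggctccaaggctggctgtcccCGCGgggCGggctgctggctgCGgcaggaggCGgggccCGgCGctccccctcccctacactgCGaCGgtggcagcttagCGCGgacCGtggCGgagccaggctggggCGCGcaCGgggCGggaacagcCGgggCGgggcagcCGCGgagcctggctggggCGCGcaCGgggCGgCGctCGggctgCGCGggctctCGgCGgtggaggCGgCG
The Map2 window holds 34 CG dinucleotides and is 81.2% G or C, and the Pafah1b1 window holds 22 and is 73.2%. The Dcx window holds 3 and is 41.6% G or C, where the median of all 32526 distinct windows of this length is 6 and 52.4%. TATAAA, searched on both strands, occurs 1 time in the Dcx window and in 12.3% of all windows, and CCAAT 1 time in Dcx and in 33.8%. Neither occurs in the other windows, and the E-box CANNTG, held by 66.2% of all windows, is in none of the 3. No motif overlaps another.

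Reln encodes reelin, the extracellular signal of the pathway. Its probe had scaled levels of -1.45, -1.51, -1.53 and -1.40. The arrays interleaved, with the TiO2-H arrays at both ends, and their 2 values were farther apart (0.13) than the Sham arrays (0.06). The difference was 0.02 (95% interval -0.20 to 0.24), or 1.01-fold, at an unadjusted p of 0.828 and an adjusted p of 0.914 by limma. Cajal-Retzius neurons are among the cells that make reelin. For all 5 of their markers (Trp73, Lhx1, Lhx5, Calb2, Ebf3), both scaled TiO2-H levels were below both Sham levels, as for 23.6% of all probes. Without scaling, 4 of them were above and 1 below. Their summed scaled intensity was 15.5 to 15.6 on the TiO2-H arrays and 16.1 to 16.2 on the Sham arrays, with a median difference of -0.05, and none of the 5 had an unadjusted p under 0.05. Whole brain RNA does not tell which cells these signals came from, and the part of the markers in the Reln value was not tested.

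Dab1 encodes the adaptor that is phosphorylated when reelin binds its receptors. Its brightest probe, A_52_P392216, had scaled levels of 1.45, 1.497, 1.41 and 1.46. The groups overlapped, and the difference was -0.04 (95% interval -0.19 to 0.11). The other 3 probes differed by -0.03, -0.01 and 0.06. Of these, A_55_P2120060 was above on both TiO2-H arrays, with levels of -0.76, -0.74, -0.70 and -0.69, and A_51_P437135 lay just below on both. The sign is therefore not the same over the probes of Dab1, and for 3 of the 4 it also turned without scaling.

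Pafah1b1 encodes Lis1, the regulator of dynein that is lost in classical lissencephaly. Its brighter probe, A_55_P2111005, had scaled levels of 3.98, 4.03, 4.21 and 4.24. Both TiO2-H pools were above both Sham pools by at least 0.18, where the 2 pools were 0.04 apart within Sham and 0.03 apart within TiO2-H. The difference was 0.22 (95% interval 0.08 to 0.36), or 1.16-fold, at an unadjusted p of 0.0151 and an adjusted p of 0.386, the lowest unadjusted p of the 21 probes. The dimmer probe, A_55_P1992769, with the same accession, had levels of 2.32, 2.24, 2.35 and 2.33. It also did not overlap, but its difference was only 0.06 (95% interval -0.10 to 0.22), at an unadjusted p of 0.317. The intervals of both probes overlap.

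Ndel1 encodes the partner of Lis1 that links it to dynein. Its brighter probe had scaled levels of 3.77, 3.76, 3.77 and 3.81, with a difference of 0.02 (95% interval -0.11 to 0.16). All 4 arrays lay within a narrow range on this probe. The dimmer probe, A_52_P488305, had levels of 0.04, 0.02, -0.17 and -0.05. Both TiO2-H arrays were below both Sham arrays there, and the difference of -0.13 (95% interval -0.33 to 0.06) had an unadjusted p of 0.121. Without the array labelled TiO2-H male the difference was -0.07, and without scaling it was -0.02.

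Dcx encodes doublecortin, a microtubule-binding protein of migrating neurons. Its brightest probe, A_52_P244349, had scaled levels of 4.65, 4.73, 4.81 and 4.87. The TiO2-H arrays were the 2 highest, with gaps of 0.08 within Sham and 0.06 within TiO2-H. The difference was 0.15 (95% interval -0.02 to 0.33), or 1.11-fold, at an unadjusted p of 0.0699 and an adjusted p of 0.416. The dimmest probe, A_52_P506493, read -0.22, -0.20, -0.09 and -0.16, a difference of 0.08 at an adjusted limma p of 0.522. The probe for another transcript, A_55_P2080126, read 1.02, 0.95, 1.04 and 1.04, a difference of 0.05 at an adjusted limma p of 0.629. The order of the exposures was thus the same on 3 of 3 probes, and its size did not pass the test on any.

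Tuba1a and Tubb2b encode the alpha- and beta-tubulin isotypes that dominate in young neurons, and Tubb3 the neuron-specific beta-tubulin. Tuba1a had scaled levels of 8.53, 8.49, 8.53 and 8.57, with a difference of 0.04 (95% interval -0.10 to 0.18). The TiO2-H arrays were above both Sham arrays by as little as 0.007 on the closest pair, and under quantile normalization the difference was 0. Tubb3 had levels of 6.62, 6.64, 6.57 and 6.59, a difference of -0.05 (95% interval -0.18 to 0.07) at an adjusted limma p of 0.588. Tubb2b had levels of 7.94, 7.88, 7.89 and 7.94 on its brighter probe, with a difference of -0.00074 and an adjusted p of 0.995, the highest of the 21. Its other probe differed by 0.03 and overlapped as well. The probe sequences were not used here, and Tuba1a and Tubb2b have near-identical relatives (Tuba1b and Tuba1c, Tubb2a), so a share of these signals may come from them.

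Map2 encodes the microtubule-associated protein of dendrites and cell bodies. Its brighter probe, A_52_P22763, had scaled levels of 3.47, 3.50, 3.65 and 3.65. Both exposures formed tight pairs, 0.03 apart in Sham and 0.004 apart in TiO2-H. The difference was 0.16 (95% interval 0.04 to 0.29), or 1.12-fold, at an unadjusted p of 0.0264 and an adjusted p of 0.386. The dimmer probe, A_55_P2059307, had levels of 2.55, 2.45, 2.73 and 2.75. Its difference of 0.24 (95% interval 0.06 to 0.42), or 1.18-fold, was the largest of the 21 probes, at an unadjusted p of 0.0224 and an adjusted p of 0.386. Over the 5 neuron markers, the summed scaled intensity was 113.0 and 115.0 on the Sham arrays and 118.1 and 123.3 on the TiO2-H arrays. Of them, 2 of 5 were above on both TiO2-H arrays and 0 below, beside 26.7% and 23.6% of all probes. These counts are of scaled levels, and without scaling 5 were above and 0 below. Snap25, which encodes a protein of the synaptic vesicle release machinery, differed by 0.19 at an adjusted limma p of 0.388. It was chosen after its values were seen. The part of these markers in the Map2, Pafah1b1 and Dcx values was not tested.

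Mapt encodes tau, the microtubule-associated protein of axons. Its brightest probe, A_55_P1954486, had scaled levels of 7.36, 7.36, 7.38 and 7.298. The TiO2-H arrays lay on either side of the Sham arrays, and the difference was -0.02 (95% interval -0.18 to 0.14). The other probes differed by -0.02 and 0.04, and none of the 3 separated the exposures. The mRNAs of Map2 and Mapt thus had differences on opposite sides of 0 on their brightest probes, 0.16 and -0.02. The interval of Mapt includes 0, and its value turned to 0.02 under quantile normalization and to 0.10 without scaling. The difference between the genes was not tested.

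**Figure D2:**
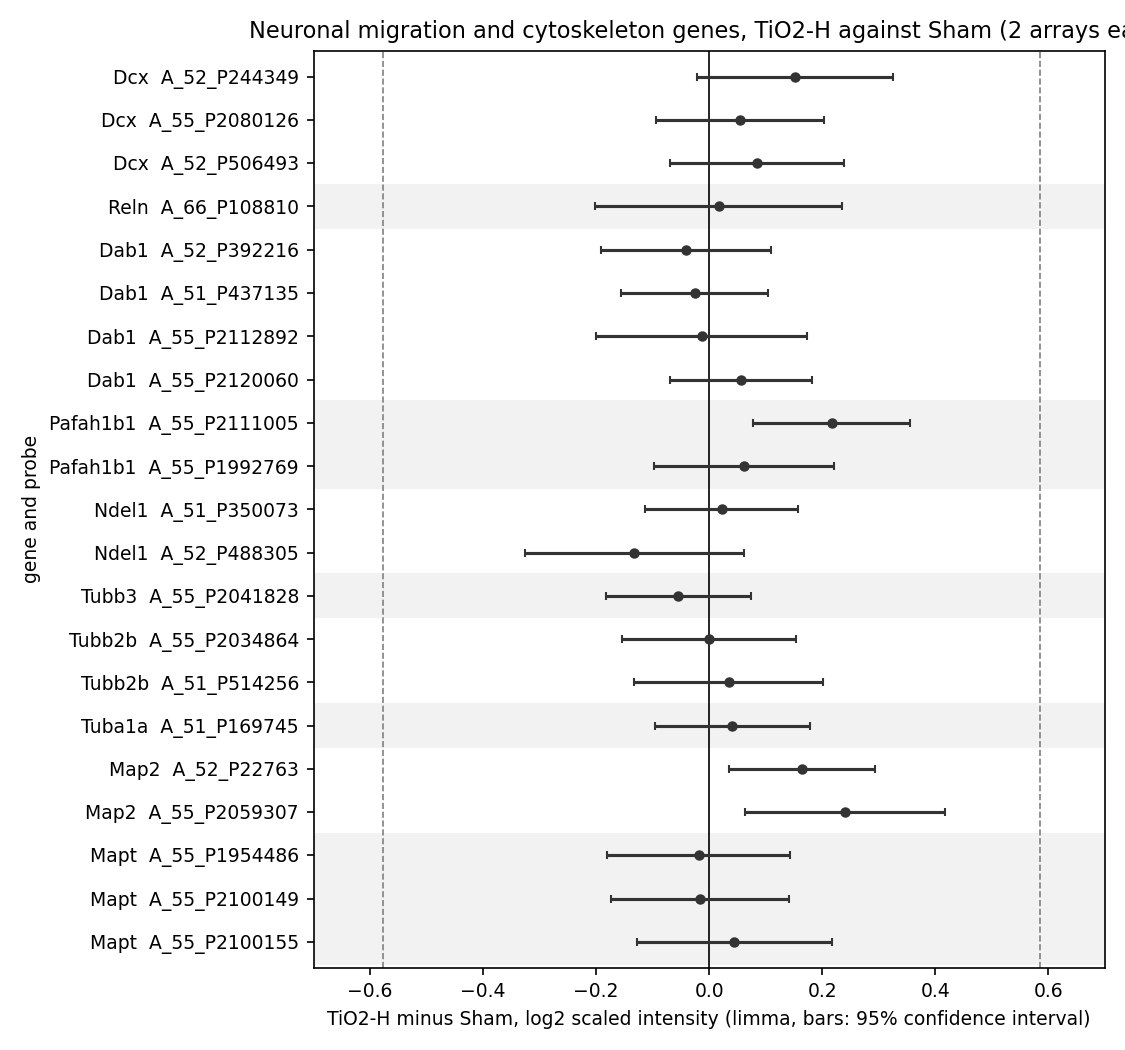
Points give the difference TiO2-H minus Sham in log2 scaled intensity (x axis) for each probe (rows), bars its 95% confidence interval from limma over 2 arrays per exposure, and dashed lines 1.5-fold and 0.67-fold. Every interval lies between the dashed lines, and 3 of them, 1 of Pafah1b1 and 2 of Map2, do not reach 0.

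Within a labelled sex there was 1 array per exposure, so no test could be made, and values are ratios of 2 pools. On the arrays labelled male, the 21 probes had ratios of TiO2-H over Sham between 0.869-fold (Ndel1, A_52_P488305) and 1.17-fold (Pafah1b1, A_55_P2111005). On the arrays labelled female they lay between 0.957-fold (Mapt, A_55_P1954486) and 1.23-fold (Map2, A_55_P2059307). None of the 21 was at or past a threshold in either pair. Of all probes compared, 4.10% reached 1.5-fold and 3.29% reached 0.67-fold on the arrays labelled male, and 4.34% and 3.31% on the arrays labelled female. The 2 Sham arrays, which differ in labelled sex but not in exposure, gave such ratios for 3.18% and 3.95% of probes (female over male), and for none of the 21, whose ratios were 0.925-fold to 1.07-fold. The median size of the log2 ratio over the 21 probes was 0.05 on the arrays labelled male, 0.06 on those labelled female and 0.04 between the Sham arrays. Over all probes it was 0.12, 0.12 and 0.08. All 21 probes are well above background, where ratios vary less than among dim probes.

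On scaled levels the sign was the same in both labelled pairs for 15 of the 21 probes, 11 brighter and 4 dimmer in TiO2-H. The share of all probes with the same sign was not counted, so these counts are a description only. Without scaling, every probe but Ndel1 A_52_P488305 was brighter in TiO2-H in both pairs. The values that follow are scaled. Pafah1b1 was among the probes with nearly equal ratios, 1.17-fold and 1.16-fold on A_55_P2111005, and so was Map2 on A_52_P22763, 1.13-fold and 1.11-fold. The ratios of their dimmer probes were less alike, 1.02-fold and 1.07-fold for Pafah1b1 and 1.13-fold and 1.23-fold for Map2. Dcx had 1.12-fold and 1.101-fold on its brightest probe. The other 6 probes, 1 each of Reln, Dab1, Ndel1 and Tubb2b and 2 of Mapt, had opposite signs, with sizes of at most 0.11 on the log2 scale. With the TiO2-H sex labels crossed, the ranges were 0.945-fold to 1.19-fold against Sham male and 0.881-fold to 1.22-fold against Sham female, and again no probe was past a threshold.

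**Figure D3:**
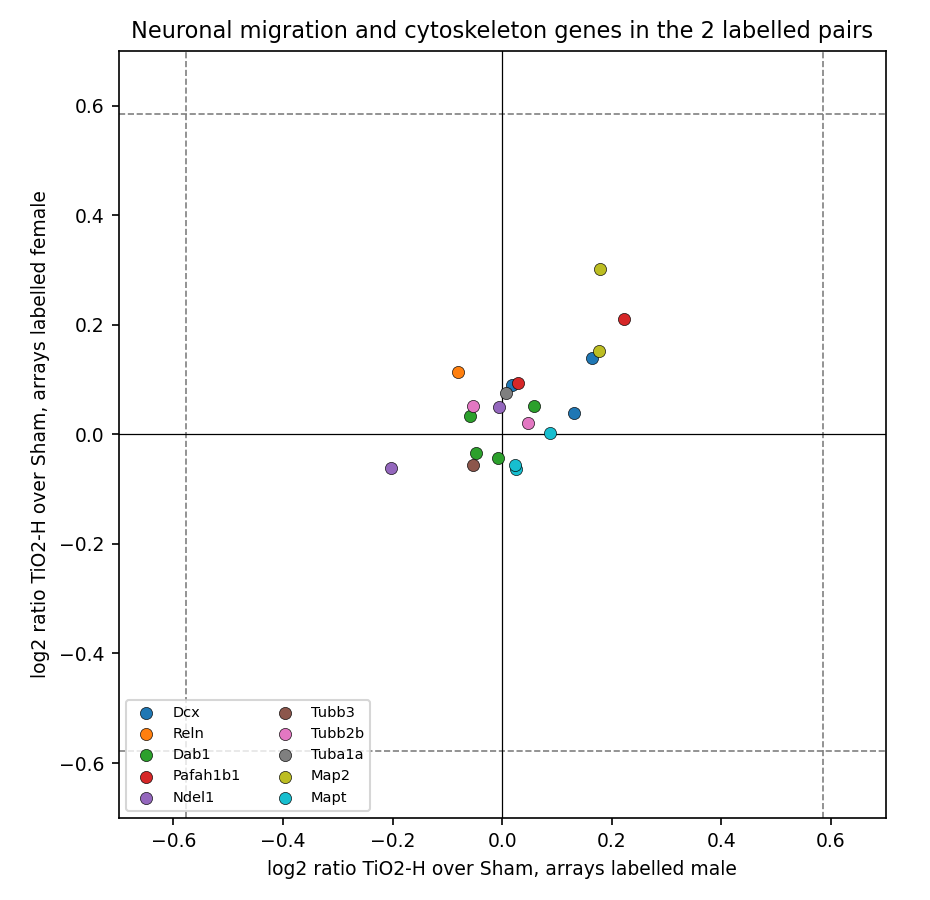
Each point is a probe, placed by its log2 ratio of TiO2-H over Sham on the arrays labelled male (x axis) and on the arrays labelled female (y axis), colored by gene, with dashed lines at 1.5-fold and 0.67-fold. All 21 points lie inside the dashed square, and both Map2 probes and the brighter Pafah1b1 probe lie farthest to the upper right with the brightest Dcx probe.

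Other genes of the same pathways were followed in 5 lists with 110 genes in all, each by its brightest probe, of which 107 were tested. At an adjusted p under 0.05, limma called 0 of them. At an unadjusted p under 0.05, 12 (11.2%) were brighter in TiO2-H and 3 (2.80%) dimmer, where 8.33% and 4.32% of all probes were. Both TiO2-H arrays lay above both Sham arrays for 35 genes (32.7%) and below them for 28 (26.2%), where 26.7% and 23.6% of all probes did. These counts are of scaled levels, and without scaling they were 82 above and 4 below. On the arrays labelled male, 1 gene was at or below 0.67-fold, and no gene passed a threshold on the arrays labelled female. The median difference by list was between -0.03 and 0.07, where it was 0.01 over 16164 genes taken the same way. Genes named below from an unadjusted p were chosen after their values were seen.

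Among 20 genes of reelin signalling, 7 were above and 5 below on both TiO2-H arrays, beside 26.7% and 23.6% of all probes. Their median difference was -0.01. Lrp8, a receptor of reelin (the apolipoprotein E receptor 2), differed by 0.16. The adaptor Crk, which binds phosphorylated Dab1, differed by 0.14, the kinase Gsk3b by 0.16, and Cul5, the scaffold of the ligase that degrades activated Dab1, by 0.18. Rapgef1, the exchange factor that Crk recruits, differed by -0.14. Unadjusted p-values of these 5 by limma were 0.0322 to 0.0485. The small GTPase Rap1a was the gene past a threshold, with signals of 313, 155, 199 and 179. The Sham male array was the highest by far, the TiO2-H over Sham ratio was 0.594-fold for the male labels and 1.06-fold for the female labels, and the Sham arrays themselves had a ratio of 0.504-fold (female over male). Its difference of -0.34 had an unadjusted p of 0.458 by limma.

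Among 20 genes of Lis1, Ndel1 and dynein, 6 were above and 5 below, with a median of -0.002. Of all probes, 26.7% were above and 23.6% below. Disc1, a scaffold that binds Ndel1, differed by 0.24 at an unadjusted limma p of 0.0421 and an adjusted p of 0.390, and no other gene of the list had an unadjusted p under 0.05. Among 18 tested genes of the doublecortin family and migration regulators, 9 were above and 3 below, and the median was 0.07, the highest of the 5 lists. Dclk1, the doublecortin-like kinase, differed by 0.16. The small GTPase Rnd3 differed by 0.15, the neuronal adhesion protein Astn1 by 0.17 and the kinesin subunit Kif3a by 0.15. Ackr3, an atypical receptor for the chemokine Cxcl12, differed by -0.28, with TiO2-H over Sham ratios of 0.779-fold (male labels) and 0.874-fold (female labels). On no array was Erbb4 of this list well above background, and it was not tested.

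Among 21 tested genes of other tubulins and tubulin folding, 4 were above and 9 below, beside 26.7% and 23.6% of all probes, with a median of -0.03. The summed scaled intensity of these genes was 1171 to 1178 on the TiO2-H arrays and 1236 to 1254 on the Sham arrays. Without scaling the order turned, with sums of 1019950 and 1021590 on the TiO2-H arrays and 982704 and 1015850 on the Sham arrays. Tubb6 differed by 0.29 and Tubd1, delta-tubulin, by 0.15, whereas Tubb4a differed by -0.20. Their unadjusted p-values by limma were 0.0309, 0.0337 and 0.0341. Among 28 tested microtubule-associated and growth cone proteins, 9 were above and 6 below, with a median of 0.02. Map1b, a microtubule-associated protein of growing axons, had the lowest unadjusted p of the 5 lists, 0.0119. Its signals were 5447, 5537, 6999 and 6985, and its difference was 0.23, or 1.20-fold between the arrays labelled male and 1.15-fold between those labelled female. The adjusted p-values of all genes named from the lists for an unadjusted p were 0.386 to 0.394.

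Over all 39 marker genes tested, both TiO2-H arrays were above both Sham arrays for 14 (35.9%) and below them for 12 (30.8%). Of all probes, 26.7% were above and 23.6% below. These counts are of scaled levels. Without scaling, only 1 Cajal-Retzius and 1 erythroid marker were below. The count above then rose for every cell type but microglia, where it stayed at 4, and erythroid cells, where it stayed at 0. For the 4 microglia markers (Aif1, Cx3cr1, Csf1r, Itgam) both TiO2-H arrays were above both Sham arrays, with summed scaled intensities of 41.8 to 44.8 against 36.9 to 39.0. The 4 endothelium markers had 7.88 to 7.94 against 6.89 to 7.21, with 2 above. Of the erythroid markers, 3 had summed levels of 51.6 to 51.9 against 60.1 to 62.6, with 2 below. In microglia, endothelium and erythroid markers the sums kept this order without scaling. Most of each sum came from 1 gene: Itgam, Cldn5 and Hba-a1. Without it, the scaled sums of the microglia markers were 12.6 to 12.7 against 11.4 to 11.6. Those of the endothelium markers were 0.710 to 0.729 against 0.628 to 0.702, and those of the erythroid markers 1.14 to 1.16 against 1.21 to 1.35. The 6 markers of radial glia and progenitors had 142.6 to 145.4 against 127.1 to 137.0, with 3 above and 2 below. Without Fabp7, the brightest of them, the sums were 45.0 to 45.9 against 44.4 to 45.0. The astrocyte, oligodendrocyte lineage and choroid plexus markers had median differences of -0.02, 0.05 and -0.06. Of all these markers and the neuron and Cajal-Retzius markers, 0 passed an adjusted p of 0.05 by limma. At an unadjusted p under 0.05, limma called 4 of the 39: Snap25, Cldn5, Csf1r and, in the direction of lower TiO2-H signal, Hba-a1. Over all probes, 8.33% were brighter and 4.32% dimmer at that p. The part of the markers in the values of the migration and cytoskeleton genes was not tested.

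**Figure D4:**
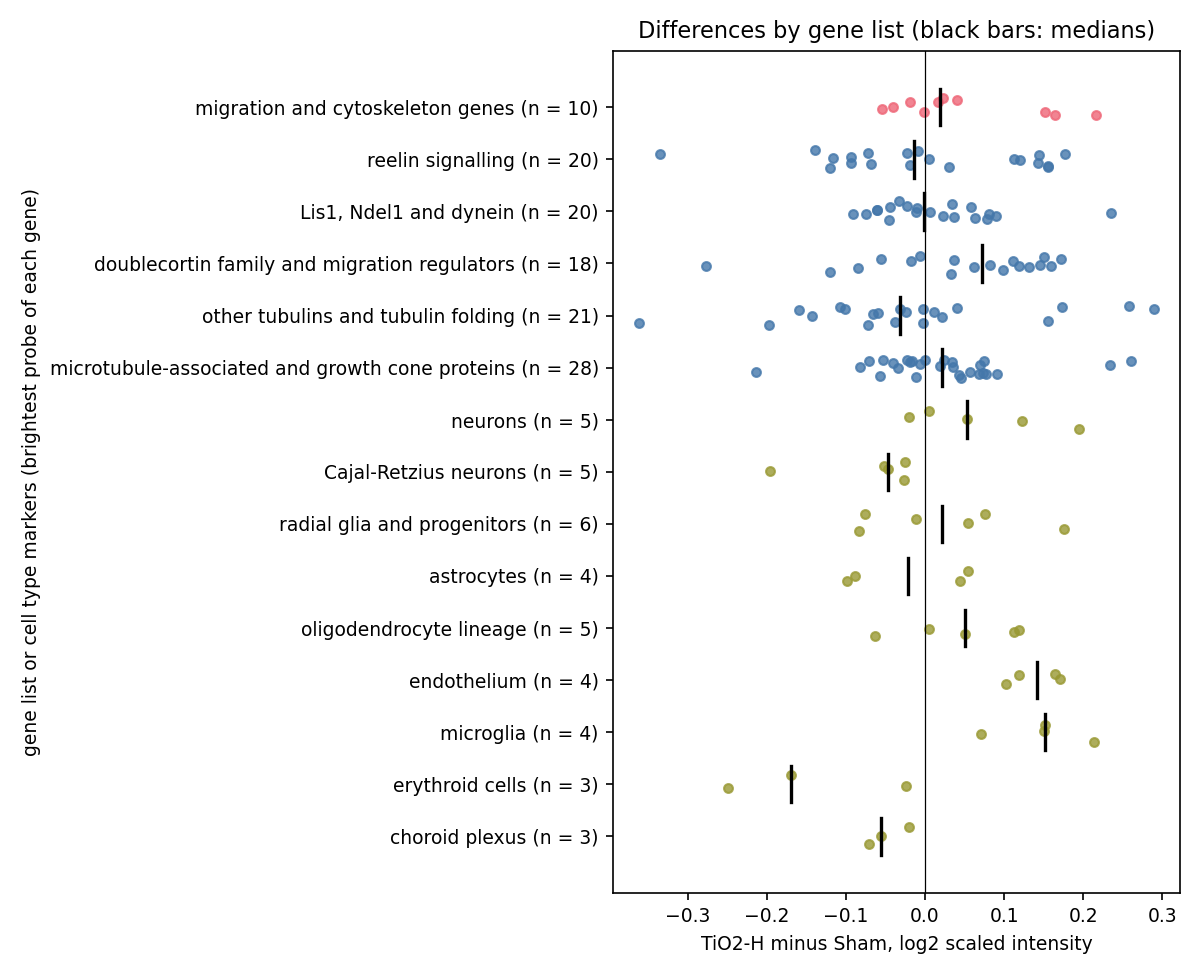
Each point is a gene, placed by its difference TiO2-H minus Sham in log2 scaled intensity of its brightest probe (x axis), with the 10 migration and cytoskeleton genes in red, the 5 other pathway lists in blue and the cell type markers in olive, and black bars for the medians (rows, number of genes in parentheses). The 3 red points at the right are Dcx, Map2 and Pafah1b1, at 0.15 to 0.22, and the medians of the 5 blue lists lie between -0.03 and 0.07.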

How the data were processed

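The authors deposited the scanner output of 4 one-color arrays as intensity, made with Feature Extraction (version 10.10.1.1), and a table with the same intensity values. The software had subtracted background, and nothing had been scaled between arrays. Here each processed signal was divided by the 75th percentile of the non-control spots of its array and put on the log2 scale, and outlier spots were dropped. A probe was tested when well above background on at least 1 array, with dim spots raised to the array's lowest signal called well above background unless already higher. Accessions were named through RefSeq (GRCm38.p6). The 2 TiO2-H arrays were compared with the 2 Sham arrays in limma 3.58.1 (R 4.3.3) without a sex term and with Benjamini-Hochberg adjustment. An exact permutation test of 2 against 2 arrays cannot go below p = 0.33. Ratios within a labelled sex have no test.

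The genes, lists and tests were chosen with earlier results of these data known. All probes of the 10 genes are named. A listed gene was named when its brightest probe passed a fold threshold of the study (1.5 up, 0.67 down) in a labelled sex, or had an unadjusted p under 0.05 with a log2 difference of at least 0.3, up to 6 per list. Other listed genes with an unadjusted p under 0.05 were named after their values were seen. The arrays held no mean signal, so normexp used median signals. Scaling, filter, floor, outlier spots, sex as a term, probe choice and each array left out were varied, and the steps were tested on simulated data. Python 3.11.15, numpy 2.4.6 and pandas 2.3.3 were used. The number of arrays limits the precision.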

Additional observations from a re-analysis of the deposited data

Results flagged for a closer look

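In 4 genes the brightest probe had opposite signs in the 2 labelled pairs, and that is why they are listed. The difference between the pairs was not tested, since each pair holds 1 array per exposure, and the sex-linked genes went against the labels of both TiO2-H arrays. The log2 ratio on the arrays labelled female minus that on the arrays labelled male was 0.195 for Reln (0.114 and -0.081), 0.105 for Tubb2b (0.052 and -0.053), 0.0551 for Ndel1 (0.050 and -0.0053) and -0.0885 for Mapt (-0.063 and 0.025). Over probes well above background on all 4 arrays, the log2 ratio of the 2 Sham arrays had an SD of 0.26. That is the spread of 1 ratio over many probes and not of a difference of 2 ratios, so it does not measure the spread of these values. Over the 21 probes, the log2 ratio of the Sham arrays was at most 0.11 in size, with a median size of 0.04.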

How the results depend on the processing

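Under all 16 alternatives, limma called 0 probes of the 10 genes and 0 of all probes at an adjusted p under 0.05, each left-out array included. No probe of the 10 genes passed a threshold in either labelled pair or between the Sham arrays under any alternative run, the last chosen after seeing the data. On the brightest probes, or with the mean of a gene's probes, Dcx, Pafah1b1, Tuba1a and Map2 kept their sign or were at 0. Their differences were 0.10 to 0.27, 0.14 to 0.33, 0 to 0.15 and 0.15 to 0.28. The lowest of Dcx and of Pafah1b1 came with the mean of probes. The deposited values, filters, floor, outlier spots, sex term and 1 probe per accession cannot move the differences of these bright probes. Leaving out scaling raised each of these differences, so a positive sign could turn only under quantile normalization, normexp, the mean of probes or a left-out array. Without scaling, which moved the median of all probes to 0.13, the sign turned for Dab1 (0.0740), Tubb3 (0.0598), Tubb2b (0.114) and Mapt (0.0956). It turned under quantile normalization for Tubb2b (0.0374) and Mapt (0.0182), under normexp for Dab1 (0.0456) and Tubb2b (0.00177), and with the mean of a gene's probes for Ndel1 (-0.0552), Tubb2b (0.0168) and Mapt (0.00323). With 1 array left out the range was -0.0506 to 0.0839 for Reln, which turned without Sham female or TiO2-H female, -0.0315 to 0.0300 for Tubb2b, which turned without Sham male or TiO2-H male, and -0.0619 to 0.0242 for Mapt, which turned without TiO2-H female. The cause was not tested. The count of these probes at an unadjusted p under 0.05 was 3 as reported, beside 4506 of all 35626 probes. Without scaling it was 6, beside 7988 of all probes. With sex as a term it was 1, beside 2921 of all probes as labelled and 2922 crossed.

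Counts of all probes past a threshold moved more. On the arrays labelled male, 1367 probes at 1.5-fold or above became 577 under normexp, 571 with both arrays required above background, 2076 without a floor and 489 at 2-fold, and 1096 at 0.67-fold or below became 401 with both arrays required and 690 at 0.5-fold. On the arrays labelled female, 1477 became 2317 without scaling, 330 under normexp, 356 with both arrays required and 556 at 2-fold, and 1127 became 731 under normexp, 490 with both arrays required and 723 at 0.5-fold. Fewer probes are tested by construction where both arrays are required. The labels number no replicates, so the fits with labelled sex as a term, as labelled or crossed, are the paired fits that could be made, and they changed no call after adjustment. The scanner software's modelled error for these spots was up to 10.4% of the signal, or 0.14 to 0.15 on a log2 difference of 2 against 2 arrays. The measured values were smaller, with a median SD of 0.062 to 0.067 on the log2 scale between repeated spots of a probe within an array and standard errors of 0.041 to 0.071 for the 21 differences.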
